A study of Mus musculus with 4 samples.

Results

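Imprinted genes were examined in the E13 brain of Gsdmd conditional knockout and WT mice, from a list of 40 genes whose expression depends on the parent of origin. The genes were selected by name alone, and 39 of the 40 stood among the 26955 genes of the count table. Snurf had no row and was not analysed here. Position placed them in 18 regions, namely 9 clusters with 31 listed genes and 9 loci with a single listed gene. By the allele generally known to be expressed, 22 were listed as paternally expressed, 14 as maternally expressed and 4 (Grb10, Blcap, Gnas and Inpp5f) as dependent on the isoform or tissue. These labels were not measured in this tissue, where other genes of the list may be expressed from both copies. The list was drawn up with earlier results of these data known.

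The study asked what loss of Gsdmd, the executor of pyroptosis, does to the developing cortex. Total RNA was sequenced from 2 libraries of conditional knockout embryos (cKO, genotype GSDMDfl/fl;Nestin-Cre, replicates 2 and 6) and 2 libraries labelled WT (replicates 4 and 5), all C57BL/6 at E13. The labels name the tissue as brain, whereas the paper describes cerebral cortex and Gsdmd fl/fl controls. The design text speaks of triplicates, and 4 libraries were analysed here. Nestin-Cre recombines in neural progenitors and their descendants, so cells of other lineages in the tissue keep Gsdmd. No source says that the libraries came from separate embryos, so p-values reflect nothing but the differences among these libraries, which may be technical. The libraries held 16962553 to 18205945 counts. Gsdmd itself had 13 and 7 counts in cKO, against 54 and 43 in WT (log2 fold change -2.34, SE 0.40, edgeR adjusted p = 0.0846), in the direction of the labels though short of the threshold. Xist and Y-linked counts gave WT replicate 5 a female profile (Xist 7640) and the other 3 libraries a male profile (Xist 1 to 12), so sex is unbalanced between the groups. The mean chi-square per gene, a distance between 2 libraries over genes above a count floor, was smallest between cKO replicate 2 and WT replicate 4 (10.51). It was 14.61 between the cKO libraries and 15.93 between the WT libraries, so the libraries did not group by genotype.

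In genomic imprinting, methylation laid down in the egg or sperm marks a control region, and the genes around it are then transcribed from the maternal or the paternal copy alone. Neighbouring imprinted genes share such a region and form clusters that usually hold protein-coding genes and long noncoding RNAs of opposite parental expression. Many imprinted genes are most active in the embryo, the placenta and the hypothalamus, where they act on growth, feeding and maternal care. Read counts do not separate the parental copies, so every level given here is the sum of both.

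Promoter sequences are shown for the neighbours that are set against each other below, Magel2 with Ndn and Peg3 with Usp29, and for Nap1l5 and Dlk1, which had some of the largest differences. Each is the stretch of 250 bases before the RefSeq start on the strand of the gene (GRCm38.p6), with CpG dinucleotides, the bases at which imprints are methylated, in capitals. Magel2 lies at chr7:62376729-62376978 on the plus strand and Ndn at chr7:62348027-62348276 on the plus strand. Peg3 lies at chr7:6730420-6730669 on the minus strand and Usp29 at chr7:6730333-6730582 on the plus strand. Nap1l5 lies at chr6:58907127-58907376 on the minus strand and Dlk1 at chr12:109452573-109452822 on the plus strand.
Magel2: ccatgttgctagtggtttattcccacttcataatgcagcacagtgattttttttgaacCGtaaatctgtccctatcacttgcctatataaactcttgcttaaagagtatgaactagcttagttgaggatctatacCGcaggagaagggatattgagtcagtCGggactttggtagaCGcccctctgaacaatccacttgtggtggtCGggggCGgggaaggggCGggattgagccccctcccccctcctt
Ndn: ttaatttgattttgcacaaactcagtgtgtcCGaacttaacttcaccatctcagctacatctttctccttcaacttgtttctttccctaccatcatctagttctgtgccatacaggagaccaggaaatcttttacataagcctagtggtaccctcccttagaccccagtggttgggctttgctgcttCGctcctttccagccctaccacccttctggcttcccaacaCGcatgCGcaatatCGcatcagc
Peg3: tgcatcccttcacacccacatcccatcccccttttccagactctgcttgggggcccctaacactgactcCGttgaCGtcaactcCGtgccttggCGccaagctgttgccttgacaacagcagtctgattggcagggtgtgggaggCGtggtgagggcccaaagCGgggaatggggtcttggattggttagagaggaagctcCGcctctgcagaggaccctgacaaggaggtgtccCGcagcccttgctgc
Usp29: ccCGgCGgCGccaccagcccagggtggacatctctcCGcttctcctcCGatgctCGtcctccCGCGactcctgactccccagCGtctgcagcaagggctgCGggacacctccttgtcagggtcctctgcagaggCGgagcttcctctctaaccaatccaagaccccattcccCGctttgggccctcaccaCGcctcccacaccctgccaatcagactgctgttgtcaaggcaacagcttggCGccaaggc
Nap1l5: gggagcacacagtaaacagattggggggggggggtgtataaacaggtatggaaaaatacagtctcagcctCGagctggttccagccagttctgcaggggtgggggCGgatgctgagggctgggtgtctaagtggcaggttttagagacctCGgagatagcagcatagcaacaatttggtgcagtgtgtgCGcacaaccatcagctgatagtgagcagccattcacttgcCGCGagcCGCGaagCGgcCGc
Dlk1: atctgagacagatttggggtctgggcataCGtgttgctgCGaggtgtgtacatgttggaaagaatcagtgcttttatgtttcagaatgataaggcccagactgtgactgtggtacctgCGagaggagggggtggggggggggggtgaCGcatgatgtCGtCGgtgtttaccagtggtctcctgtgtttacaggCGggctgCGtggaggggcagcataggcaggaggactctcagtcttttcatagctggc

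The Peg3 and Usp29 windows read away from a shared start region and have 163 bases in common on opposite strands. They held 8 and 14 CpG, Magel2 held 7, Ndn 5, Nap1l5 10 and Dlk1 8. RefSeq windows were found for 33 of the 40 genes (52 windows), with a median of 10 CpG in windows of imprinted genes and of 6 in all 32851 windows. The letters TGCCGC, bound by the imprint-protecting zinc finger protein ZFP57 when methylated, were searched on both strands. They stood in 9 of 52 windows of imprinted genes (17.3%) and in 8.68% of all windows. The letters hold a CpG themselves, and the shares were not matched for the number of CpG. Some genes have several windows, so the 52 windows are not separate genes. The 8 genes with a match were Zdbf2, Calcr, Mest, Copg2, Nap1l5, Zim1, Plagl1 and Meg3. A match in such a window is a description of letters and no measure of binding or methylation.

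The listed imprinted genes were mostly lower in cKO than in WT, and 2 paternally expressed genes passed the test. In a second set of imprinted genes, given below, 15 of 29 tested were below 0 (median log2 fold change -0.003). Genes of that set may likewise be expressed from both copies in this tissue, which was not measured. Of 36 listed genes that passed the filter on low counts, Magel2 and Peg10 fell, none rose and 34 did not pass. The threshold was an adjusted p under 0.05 in the quasi-likelihood test of edgeR (Benjamini-Hochberg over 15804 genes). Among all tested genes 0.196% fell and 0.00633% rose. At an unadjusted p under 0.05 the imprinted genes counted 15 lower (41.7%) and 1 higher, against 3.79% lower and 3.32% higher among all tested genes. The log2 fold change was below 0 in 33 of 36, against 52.4% of all tested genes. Its median was -0.31 over the imprinted genes and -0.01 over all tested genes. Both cKO libraries lay below both WT libraries for 25 of 36 (background 20.3%) and above both for 1 (background 16.9%). With no filter, the same held for 25 of 39 (background 17.7%) and 1 of 39 (background 13.7%). DESeq2 and limma-voom also called 0 imprinted genes higher, and DESeq2 called 6 lower, where 0.43% of all tested genes fell and 0.0823% rose. The SE with each value is the standard error of the log2 fold change.

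**Figure D1:**
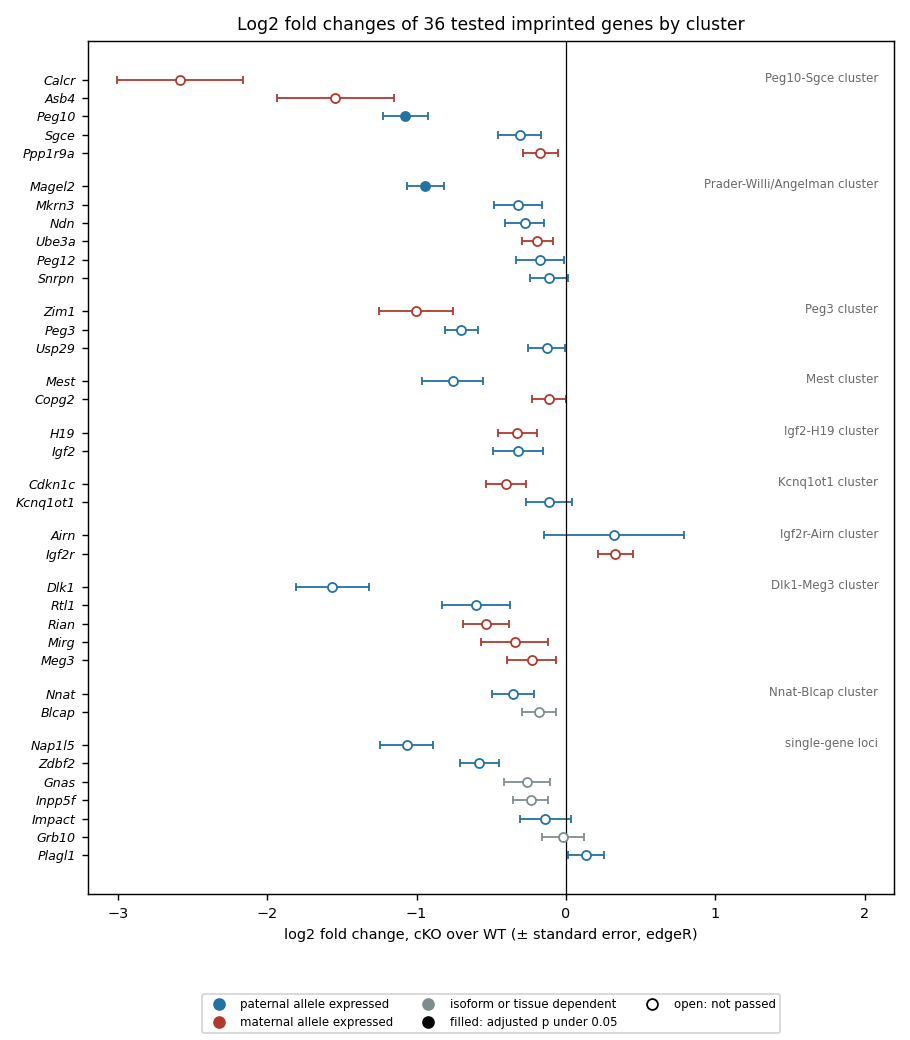
Log2 fold change of cKO over WT with its standard error (edgeR) for the 36 tested imprinted genes, grouped by cluster and coloured by the allele known to be expressed. Filled points mark Magel2 and Peg10, the 2 genes at an adjusted p under 0.05, and 33 of the 36 points lie left of 0.

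WT replicate 5, the female library, weighed on these counts. Without it, which leaves male libraries alone, 31 of 38 genes were below 0 (49.4% of all genes) and 9 of 38 were lower at an unadjusted p under 0.05 (2.03% of all genes). These counts were added after the data were seen. No gene of the whole table then passed the adjusted threshold. The median of the imprinted genes was -0.19 without WT replicate 5, and also -0.19 without cKO replicate 6, -0.31 without cKO replicate 2 and -0.39 without WT replicate 4. With all 4 libraries, the median deviation of the 36 genes from their own mean was -0.10 and -0.20 on the log2 scale in cKO replicates 2 and 6, against 0.12 and 0.21 in WT replicates 4 and 5. Of the 15 genes lower at an unadjusted p under 0.05, 13 were lower in cKO replicate 6 than in cKO replicate 2, compared with 50% of all tested genes.

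**Figure D2:**
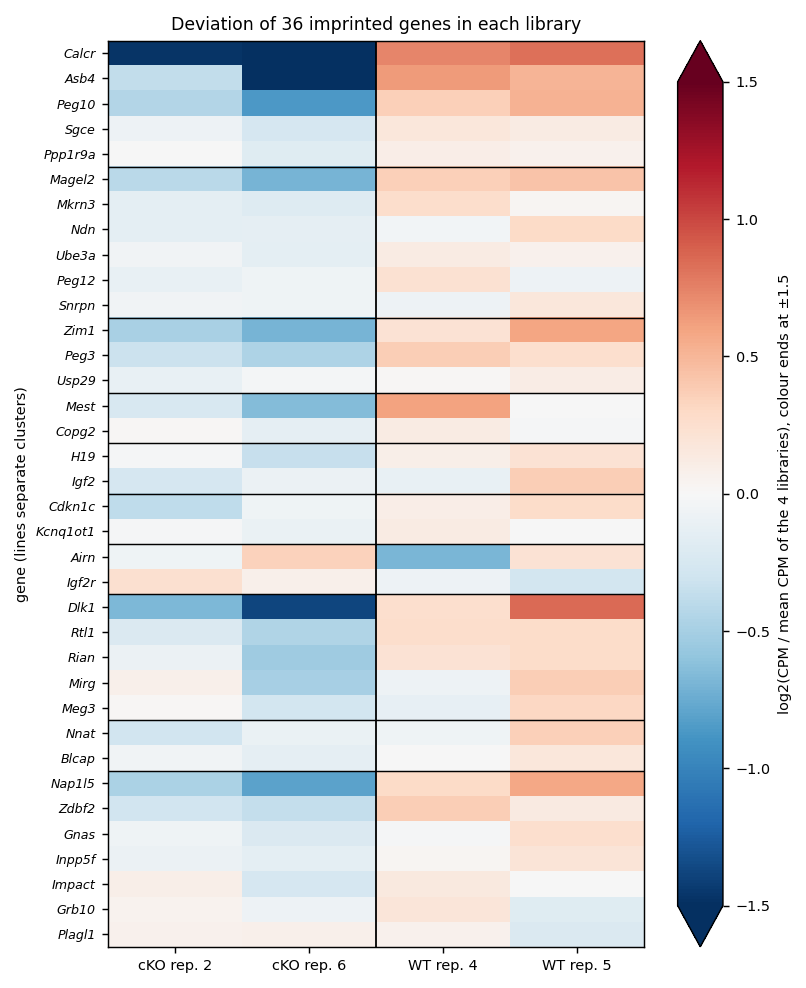
Deviation of each of the 36 tested imprinted genes in each library, as log2 of its TMM-normalized CPM over the mean of the 4 libraries, with horizontal lines between clusters. Most rows are blue in cKO replicates 2 and 6 and red in WT replicates 4 and 5, the median deviation being -0.10 and -0.20 for cKO, against 0.12 and 0.21 for WT.

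Markers of other brain regions also differed between cKO and WT. Of 14 tested hypothalamus markers 5 fell (Hmx2, Hmx3, Bsx, Onecut2 and Onecut3) and none rose, 11 were lower and 1 higher at an unadjusted p under 0.05, and their median log2 fold change was -1.84. Among all tested genes 0.196% fell, and 3.79% were lower and 3.32% higher at an unadjusted p under 0.05, as background for each marker list. Without WT replicate 5 the median of the hypothalamus markers was -1.30. It was -2.37 without cKO replicate 2, -1.48 without cKO replicate 6 and -2.31 without WT replicate 4. Of the 18 listed, 4 were at 0 in both cKO libraries (Hmx2, Six6, Rax and Nkx2-4). In WT replicates 4 and 5, Six6 had 10 and 49 counts, Rax 0 and 3, and Nkx2-4 0 and 2. Rax and Nkx2-4 were thus near 0 in WT as well. The summed level of the 18 was 154 and 108 CPM in cKO, against 284 and 352 CPM in WT. By this sum the 4 libraries stood in the same order as for the median of the imprinted genes, whereas the erythroid sums below had another order. The order of 4 libraries cannot decide on a link, and none was tested. Much of the WT sum came from Nkx2-1 (48.3 and 17.4 CPM in cKO, against 125 and 147 CPM in WT) and Six3 (26.1 and 17.5 CPM in cKO, against 47.3 and 58.2 CPM in WT). Isl1 (19.1 and 10.1 CPM in cKO, against 36.2 and 39.6 CPM in WT) is also on the ventral telencephalon list, so the sums of both lists share this gene. Hmx2 had 0 and 0 counts in cKO, against 52 and 48 in WT. The part of these markers in the results for imprinted genes was not tested, and fewer cells of a type cannot be told apart from less RNA per cell in such tissue samples.

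Markers of the ventral telencephalon, the choroid plexus and blood also had lower sums in cKO, and those of the dorsal cortex had higher ones. Ventral telencephalon markers summed to 827 and 555 CPM in cKO, against 977 and 1153 CPM in WT, with 9 of 11 lower at an unadjusted p under 0.05. Without WT replicate 5 or without cKO replicate 6 that count was 4. The smallest p belonged to the homeobox genes Dlx2 (2078 and 1469 counts in cKO, against 2963 and 3112 in WT) and Lhx8 (356 and 155 in cKO, against 719 and 821 in WT). None was called by edgeR with all 4 libraries (2 by DESeq2). The median log2 fold change of this list was -0.70 with all 4 libraries, -1.06 without cKO replicate 2 and -0.32 without cKO replicate 6. It was -0.76 without WT replicate 4 and -0.42 without WT replicate 5.

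Dorsal cortex markers summed to 3245 and 3772 CPM in cKO, against 3212 and 2957 CPM in WT, with 3 of 10 higher at an unadjusted p under 0.05. That count was 0 without WT replicate 5 or without cKO replicate 6 and 5 without cKO replicate 2. Its genes of smallest p were Emx2, a cortical homeobox gene (1087 and 1430 counts in cKO, against 894 and 804 in WT), and Eomes, a gene of intermediate progenitors (3897 and 4557 in cKO, against 3266 and 2661 in WT).

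Choroid plexus markers summed to 4.46 and 4.40 CPM in cKO, against 18.1 and 174 CPM in WT, and their median log2 fold change of -2.73 was -0.62 without WT replicate 5. Of 6 tested, 1 fell, the homeobox gene Otx2, with 58 and 28 counts in cKO, against 272 and 236 in WT. Otx2 made up 15.6 of the 18.1 CPM of WT replicate 4, in which Ttr and Clic6 had 0.573 and 0.229 CPM. The sum of that library was therefore mostly Otx2 and no measure of the other choroid plexus markers. Ttr, the transthyretin gene of this tissue, had 3 and 6 counts in cKO, against 10 and 2387 in WT, so that its high value came from WT replicate 5. Without cKO replicate 2, cKO replicate 6 and WT replicate 4 in turn, the median of this list was -3.15, -4.37 and -3.11.

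Erythroid markers summed to 527 and 567 CPM in cKO, against 689 and 1035 CPM in WT, with 7 of 9 lower at an unadjusted p under 0.05. That count was 3 in DESeq2, and edgeR called none with all 4 libraries. Leaving out WT replicate 5 lowered the count of 7 more than leaving out any other library. This list had a median log2 fold change of -0.70, of -0.41 without WT replicate 5 and between -0.86 and -0.54 without another library. Its genes of smallest p were the globin genes Hba-a2 (99 and 72 counts in cKO, against 161 and 131 in WT) and Hbb-bs (1050 and 2030 in cKO, against 2160 and 2860 in WT), both of which have near-identical copies between which reads may be split.

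Mesenchyme and meninges markers summed to 43.7 and 35.3 CPM in cKO, against 44.3 and 48.8 CPM in WT, and endothelium markers to 93.9 and 103 CPM in cKO, against 96.2 and 108 CPM in WT. Neither of these lists had a member at an unadjusted p under 0.05 with all 4 libraries. The smallest p were those of Foxd1 (12 and 11 counts in cKO, against 17 and 23 in WT) and Foxc1 (46 and 30 in cKO, against 48 and 58 in WT) for mesenchyme and meninges. For endothelium they were those of the junction genes Cldn5 (289 and 380 counts in cKO, against 290 and 476 in WT) and Esam (181 and 167 in cKO, against 189 and 174 in WT). The counts and medians of markers with a library left out were added after the data were seen. The part of these lists in the results was likewise not tested.

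Genes listed as paternally and as maternally expressed alike lay mostly below 0. Of 20 tested paternally expressed genes 18 had a log2 fold change below 0 (median -0.32), 9 were lower at an unadjusted p under 0.05 and none was higher. Of 12 tested maternally expressed genes 11 were below 0 (median -0.34), 6 were lower and 1, Igf2r, was higher at an unadjusted p under 0.05. The groups of libraries did not overlap, with cKO lower, for 14 paternally and 8 maternally expressed genes. Over all tested genes that held for 20.3%, and 52.4% were below 0. At an unadjusted p under 0.05 in edgeR, 3.79% of all tested genes were lower and 3.32% higher. Among 12 genes, 1 higher gene cannot be told apart from the share of 3.32%. The 4 genes that depend on isoform or tissue were all below 0 (median -0.21), and none reached an unadjusted p of 0.05. Both genes called by the test were paternally expressed, and whether the share called differs between alleles was not tested.

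The Peg10-Sgce cluster on chromosome 6 had the lowest median of the 9 clusters with more than 1 listed gene, and all 5 of its listed genes were lower in both cKO libraries than in both WT libraries (median log2 fold change -1.08). Peg10, a paternally expressed gene derived from a retrotransposon and needed for the placenta (chr6:4747306-4760517 in GRCm38, plus strand), had 1855 and 1364 counts in cKO, against 3100 and 3329 in WT. This was 89.1 ± 18.5 CPM in cKO and 188 ± 14.4 CPM in WT (SD, n = 2 each). Peg10 fell by 1.08 log2 units (SE 0.15, edgeR adjusted p = 0.0359). The alternatives that left Peg10 short of the threshold were DESeq2's size factors (edgeR adjusted p = 0.0523), no filter (0.370) and leaving out WT replicate 5 (0.789). Sgce, which encodes epsilon-sarcoglycan of the cell membrane and starts back to back with Peg10, had 533 and 465 counts in cKO, against 606 and 567 in WT.

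Both maternally expressed genes at the ends of this cluster had larger fold changes from fewer reads. Calcr, the calcitonin receptor, had 9 and 5 counts in cKO, against 40 and 41 in WT, a log2 fold change of -2.59 (SE 0.42, edgeR adjusted p = 0.0712). The lower WT library was 4.63 times the higher cKO library in normalized level. Asb4, an adaptor of a ubiquitin ligase complex, had 204 and 65 counts in cKO, against 396 and 348 in WT. The groups of Asb4 were apart, yet the cKO libraries differed 3.10-fold between themselves, and its log2 fold change of -1.54 had an SE of 0.39 (edgeR adjusted p = 0.330). The fold change of Asb4 depended on which cKO library was kept, with -2.58 for replicate 6 alone and -0.94 for replicate 2 alone. Such fits hold 1 cKO library, so they do not measure the spread between cKO libraries, and only effect sizes are given. With both cKO libraries and 1 WT library the values were -1.48 (replicate 5 kept) and -1.60 (replicate 4 kept). DESeq2 did not call Asb4 with all 4 libraries. Ppp1r9a, which encodes neurabin of the actin cytoskeleton, had 917 and 804 counts in cKO, against 950 and 888 in WT.

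Genes of the same span that are not on the list were read as well. The cluster spans 1747.3 kb, and its 9 other tested genes all had a log2 fold change below 0 (median -0.52). None passed the test, and 3 of them, Casd1, Pon2 and Pon3, were lower at an unadjusted p under 0.05. Pon2, a paraoxonase reported as imprinted in placenta, had 247 and 221 counts in cKO, against 372 and 283 in WT. Over all 9 clusters 26 other genes were tested, 21 of them below 0 (median -0.17), and 0 were called by edgeR, DESeq2 or limma-voom. At an unadjusted p under 0.05 in edgeR 4 were lower and none higher, against 3.79% lower and 3.32% higher among all tested genes. That count of 4 was 2 in DESeq2, 1 without WT replicate 5 and 1 without cKO replicate 6.

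**Figure D3:**
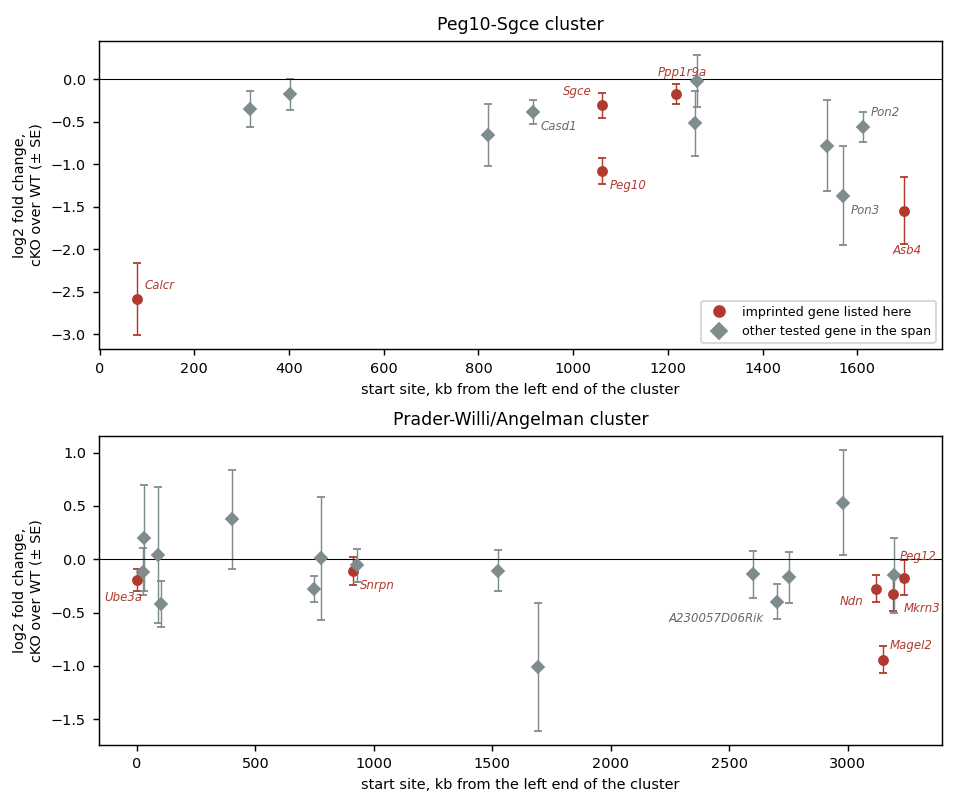
Log2 fold change of cKO over WT with its standard error (edgeR) of every tested gene in the spans of the Peg10-Sgce and Prader-Willi/Angelman clusters, by the distance of its start site from the left end of the cluster in kb. Circles are listed imprinted genes and diamonds other genes, labelled where listed or at an unadjusted p under 0.05. All points of the Peg10-Sgce span lie below 0, whereas in the Prader-Willi/Angelman span Magel2 lies apart from genes near it.

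In the Prader-Willi/Angelman cluster on chromosome 7 the difference was that of Magel2, a paternally expressed MAGE family gene whose protein works with ubiquitin ligases in endosomal sorting and whose loss in people gives a Prader-Willi-like syndrome. Magel2 (chr7:62377010-62381640 in GRCm38, plus strand) had 847 and 681 counts in cKO, against 1383 and 1398 in WT. This was 42.3 ± 6.15 CPM in cKO and 81.3 ± 2.76 CPM in WT (SD, n = 2 each). Magel2 fell by 0.94 log2 units (SE 0.12, edgeR adjusted p = 0.0260). It was called in 9 of 11 alternatives, and not with no filter (edgeR adjusted p = 0.304) or without WT replicate 5 (0.789).

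The genes beside Magel2 differed less. Ndn (necdin), a MAGE family gene of postmitotic neurons with the same paternal expression, had 10456 and 10411 counts in cKO, against 10848 and 13072 in WT, a log2 fold change of -0.28 (SE 0.13, edgeR adjusted p = 0.719). Mkrn3, a ring finger gene that restrains the onset of puberty, had 253 and 243 counts in cKO, against 324 and 265 in WT. Peg12 had 413 and 422 counts in cKO, against 503 and 392 in WT, and its groups overlapped. Snrpn, a splicing protein gene transcribed from the imprinting centre, had 785 and 767 counts in cKO, against 742 and 848 in WT, again with overlap. Ube3a, the ubiquitin ligase gene of Angelman syndrome and the only maternally expressed gene of this cluster on the list, had 1060 and 981 counts in cKO, against 1148 and 1064 in WT. Of the exon bases of Snrpn and Ube3a, 27.3% each are shared with other annotated genes, and without a known strand setting those reads cannot be assigned. The 15 other tested genes of this 3235.8 kb span had a median of -0.12, with 10 below 0. Among them Snhg14, the paternal antisense transcript of Ube3a, had 1016 and 902 counts in cKO, against 1219 and 992 in WT (log2 fold change -0.28, edgeR adjusted p = 0.703).

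**Figure D4:**
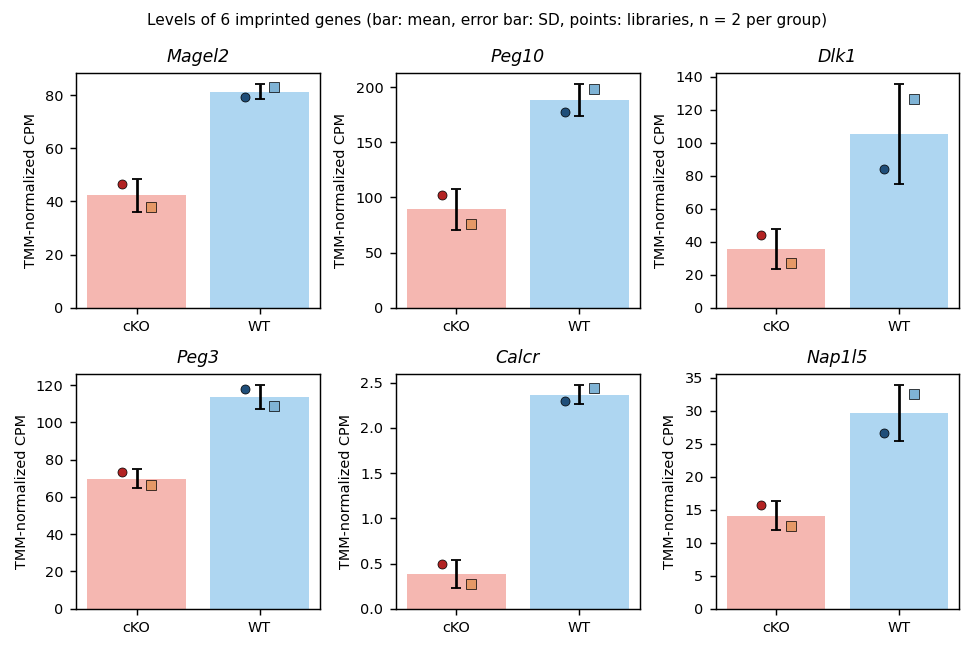
TMM-normalized CPM of the 6 imprinted genes of smallest p in each library. Bars give the mean of each group and error bars the SD (n = 2), circles are cKO replicate 2 and WT replicate 4 and squares cKO replicate 6 and WT replicate 5, and in all 6 genes both cKO libraries lie below both WT libraries.

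In the Peg3 cluster, also on chromosome 7, all 3 listed genes were lower in both cKO libraries (median log2 fold change -0.70), and none passed the test in edgeR. Peg3 (chr7:6703892-6730431 in GRCm38, minus strand), a zinc finger gene that acts on growth and maternal behaviour in mice, had 1331 and 1189 counts in cKO, against 2058 and 1832 in WT. This was 69.8 ± 4.97 CPM in cKO and 114 ± 6.34 CPM in WT (SD, n = 2 each), a log2 fold change of -0.70 (SE 0.11, edgeR adjusted p = 0.0581). DESeq2 called Peg3 lower (adjusted p = 0.000955). The maternally expressed zinc finger gene Zim1 had 55 and 47 counts in cKO, against 86 and 108 in WT (log2 fold change -1.0, SE 0.24, edgeR adjusted p = 0.320). Usp29, a ubiquitin peptidase gene that shares the promoter region printed above with Peg3, had 684 and 715 counts in cKO, against 715 and 737 in WT, a log2 fold change of -0.13.

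In the Dlk1-Meg3 cluster on chromosome 12 the paternally expressed protein-coding genes and the maternal noncoding RNAs all had log2 fold changes below 0 (median -0.54). Dlk1 (chr12:109452823-109463336 in GRCm38, plus strand), a membrane protein related to Notch ligands, had 798 and 487 counts in cKO, against 1464 and 2124 in WT. This was 35.6 ± 11.9 CPM in cKO and 105 ± 30.0 CPM in WT (SD, n = 2 each), a log2 fold change of -1.56 (SE 0.24, edgeR adjusted p = 0.0576). Dlk1 was called in 5 of 11 alternatives, among them the fit without genes on X and Y (edgeR adjusted p = 0.0496), while DESeq2 gave 0.0927. The retrotransposon-derived Rtl1 had 63 and 53 counts in cKO, against 85 and 82 in WT (log2 fold change -0.60, SE 0.23, edgeR adjusted p = 0.642).

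Of the maternal RNAs of this locus, Meg3 and Mirg overlapped between the groups and Rian did not. Meg3 had 14169 and 11427 counts in cKO, against 12310 and 16069 in WT, cKO replicate 2 lying above WT replicate 4 (log2 fold change -0.23, SE 0.16, edgeR adjusted p = 0.837). Without WT replicate 5 its log2 fold change was 0.02. Rian, a host of small nucleolar RNAs, had 3968 and 2876 counts in cKO, against 4697 and 4716 in WT (log2 fold change -0.54, SE 0.15, edgeR adjusted p = 0.456). Mirg, a host of microRNAs, had 334 and 222 counts in cKO, against 289 and 378 in WT.

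Single-gene loci held further paternally expressed genes with lower counts in cKO. Nap1l5, of the nucleosome assembly protein family, had 285 and 225 counts in cKO, against 464 and 548 in WT. Its log2 fold change of -1.07 (SE 0.18) had an adjusted p of 0.0846 in edgeR and of 0.000361 in DESeq2. Zdbf2, which acts on postnatal growth through the hypothalamus in mice, had 646 and 606 counts in cKO, against 978 and 799 in WT (log2 fold change -0.58, SE 0.13, edgeR adjusted p = 0.260). The groups of both genes were apart. Of the other single-gene loci, Gnas, which encodes the stimulatory G protein subunit, had 544 and 484 counts in cKO, against 541 and 626 in WT, and Inpp5f, a phosphoinositide phosphatase gene, had 3146 and 2985 counts in cKO, against 3294 and 3546 in WT. The groups overlapped for Impact, a regulator of translation (428 and 335 counts in cKO, against 427 and 370 in WT), for the receptor adaptor gene Grb10 (5076 and 4596 in cKO, against 5326 and 4000 in WT) and for the zinc finger gene Plagl1 (2099 and 2094 in cKO, against 2026 and 1604 in WT).

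Mest, a paternally expressed gene for a hydrolase-like protein, had 1498 and 1110 counts in cKO, against 2576 and 1624 in WT (log2 fold change -0.76, SE 0.20, edgeR adjusted p = 0.389). The groups were apart, but the WT libraries differed 1.53-fold between themselves, more than the gap of 1.17-fold between the groups. DESeq2 called Mest lower (adjusted p = 0.0451). Its neighbour Copg2, a coat protein subunit gene, had 1231 and 1088 counts in cKO, against 1267 and 1114 in WT. The 2 genes meet tail to tail, and 23.1% of the exon bases of Mest and 17.8% of those of Copg2 are shared.

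The growth regulators of distal chromosome 7 had smaller differences. Igf2, the fetal insulin-like growth factor, had 718 and 792 counts in cKO, against 761 and 1023 in WT, with overlap. H19, the maternal noncoding RNA that shares its enhancers, had 1345 and 1056 counts in cKO, against 1394 and 1461 in WT (log2 fold change -0.33, SE 0.13, edgeR adjusted p = 0.663). Cdkn1c, the cyclin-dependent kinase inhibitor that takes progenitors out of the cell cycle, had 1107 and 1366 counts in cKO, against 1482 and 1615 in WT. Its log2 fold change was -0.40 (SE 0.13, edgeR adjusted p = 0.583), and 30.7% of its exon bases are shared with another annotated gene. Kcnq1ot1, the noncoding RNA that silences Cdkn1c on the paternal chromosome, had 291 and 270 counts in cKO, against 307 and 270 in WT. Phlda2, a brake on placental growth, had 3 and 0 counts in cKO, against 1 and 0 in WT, and was not tested.

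The Igf2r-Airn cluster on chromosome 17 was the only cluster with a median above 0 (0.33). Igf2r, the receptor that clears IGF2, listed as maternally expressed, had 1994 and 1755 counts in cKO, against 1540 and 1289 in WT. This was 104 ± 8.49 CPM in cKO and 82.5 ± 8.19 CPM in WT (SD, n = 2 each), a log2 fold change of 0.33 (SE 0.12, edgeR adjusted p = 0.618). Igf2r was the single gene of the 40 with both cKO libraries above both WT libraries, and no alternative called it. Airn, the paternal antisense RNA of Igf2r, had 16 and 21 counts in cKO, against 10 and 18 in WT, with overlap.

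Nnat (neuronatin), a small membrane protein of developing neurons, had the highest level per exon length of the 39 genes, 1857 in cKO and 2377 in WT as CPM per kb. It had 57791 and 64763 counts in cKO, against 64793 and 83638 in WT (log2 fold change -0.36, SE 0.14, edgeR adjusted p = 0.663). The groups were apart by a narrow margin. Blcap, the gene in whose intron Nnat lies, had 2335 and 2192 counts in cKO, against 2319 and 2537 in WT. Ndn followed with 157 in cKO and 190 in WT on the same scale of CPM per kb. The lowest level of a tested gene was that of Calcr in cKO (0.0990) and that of Kcnq1ot1 in WT (0.181).

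Of the remaining genes, decorin (Dcn), a proteoglycan of connective tissue, had 4 and 20 counts in cKO, against 6 and 2 in WT, and the amino acid transporter gene Slc38a4 had 12 and 3 in cKO, against 6 and 9 in WT. Both are known as imprinted mainly in placenta, did not pass the filter and had overlapping groups. The 18 tested genes without full values here had log2 fold changes between -0.34 and 0.32 and a lowest adjusted p of 0.718 from edgeR.

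Ratios of neighbours within a library do not depend on how libraries are scaled. The ratio of Peg10 to Sgce counts was 3.48 and 2.93 in cKO, against 5.12 and 5.87 in WT. The ratio of Magel2 to Ndn counts was 0.0810 and 0.0654 in cKO, against 0.128 and 0.107 in WT. The ratio of Peg3 to Usp29 counts was 1.95 and 1.66 in cKO, against 2.88 and 2.49 in WT. In all 3 pairs the cKO libraries lay below the WT libraries. The ratios use the same counts as above, with a gene of larger difference set over a neighbour of smaller difference. They are therefore no separate support.

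The ratio of Dlk1 to Meg3, which are expressed from opposite alleles, was 0.0563 and 0.0426 in cKO, against 0.119 and 0.132 in WT. The ratio of Mest to Copg2 was 1.22 and 1.02 in cKO, against 2.03 and 1.46 in WT, and that of Rian to Meg3 0.280 and 0.252 in cKO, against 0.382 and 0.294 in WT. These were also lower in both cKO libraries, and again restate the counts given above. The groups overlapped for Igf2 to H19 (0.534 and 0.750 in cKO, against 0.546 and 0.70 in WT), for Mirg to Meg3 (0.0236 and 0.0194 in cKO, against 0.0235 and 0.0235 in WT) and for Nnat to Blcap (24.8 and 29.6 in cKO, against 27.9 and 33.0 in WT). How often ratios of other gene pairs are apart was not counted. With 2 libraries against 2, an exact permutation test (two-sided) cannot go below p = 0.333, so none of them can pass a threshold.

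**Figure D5:**
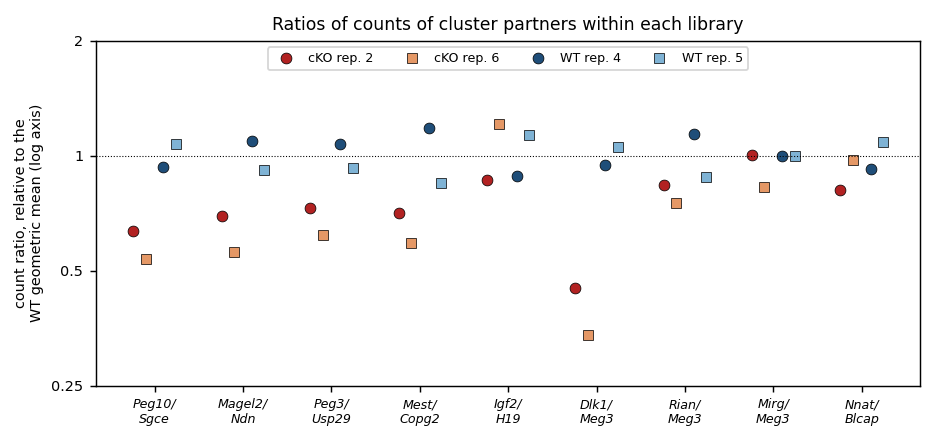
Count ratio of cluster partners in each library, divided by the geometric mean of the WT libraries and drawn on a log axis. The cKO points of Dlk1 to Meg3 lie the farthest down, and the points of cKO and WT overlap for Igf2 to H19, Mirg to Meg3 and Nnat to Blcap.

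Genes that keep imprints in place were close to the median of all genes. Of 18 tested genes of imprint maintenance none was called and none reached an unadjusted p of 0.05, in edgeR, DESeq2 or limma-voom, and their median log2 fold change was -0.03. Zfp57, whose zinc finger protein protects imprints after fertilization, had 4987 and 5125 counts in cKO, against 4150 and 4433 in WT. Trim28, its corepressor, had 13139 and 15784 counts in cKO, against 12420 and 12306 in WT, and the maintenance methyltransferase gene Dnmt1 had 6648 and 6638 in cKO, against 5949 and 5494 in WT. The smallest p of this list belonged to the chromatin remodeller gene Atrx, with 2418 and 2288 counts in cKO, against 2729 and 2453 in WT (log2 fold change -0.21, edgeR adjusted p = 0.757), followed by the dioxygenase gene Tet3, with 3796 and 3730 counts in cKO, against 3340 and 2961 in WT.

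A second set of 44 imprinted genes, not on the list of 40 and likewise not measured by allele in this tissue, had 29 tested members. Their median log2 fold change was -0.003, and 15 were below 0. Of the 29, 1 rose, none fell, and at an unadjusted p under 0.05 there were 5 lower (Ddc, Pon2, Pon3, Th and Adam23) and 1 higher. Among all tested genes 0.196% fell and 0.00633% rose, and 3.79% were lower and 3.32% higher at that p. Pon2 and Pon3 were already counted among the other genes of the Peg10-Sgce span. Without WT replicate 5, 2 of 31 were lower at that p and none was called, and without cKO replicate 6, 3 of 30 were lower. Without cKO replicate 2 or WT replicate 4, 2 of these genes were called lower. The gene that rose was X-linked Xlr3b, whose family holds near-identical copies between which reads may be split. Xlr3b had 141 and 184 counts in cKO, against 4 and 25 in WT (log2 fold change 3.39, SE 0.50, edgeR adjusted p = 0.0463), and neither DESeq2 nor limma-voom called any of these genes. Ddc, the aromatic amino acid decarboxylase of monoamine neurons, had 28 and 24 counts in cKO, against 63 and 76 in WT (log2 fold change -1.49, edgeR adjusted p = 0.129). Th, tyrosine hydroxylase of the same neurons, had 94 and 47 counts in cKO, against 121 and 157 in WT.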

How the data were processed

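Total RNA of 4 libraries (2 cKO, 2 WT) was sequenced. The authors deposited a table of whole-number read counts per gene, made, by the submitters' processing notes, with TopHat2 2.0.12, Bowtie2 2.2.3 and HTSeq 0.6.0 on mm9. Of 26897 gene identifiers found in GENCODE M21, 92.9% had the GRCm38 start and end, and positions are given as deposited. Neither strand setting nor annotation release is given in the sources used. The deposited table also holds the authors' normalized mean (a signal), fold change (a ratio), log2 fold change and p-values, which were not used.

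The groups were compared with edgeR 4.0.16 under R 4.3.3 (filterByExpr, TMM, glmQLFit and glmQLFTest, prior count 0.125, common dispersion 0.0169), which tested 15804 of 26955 genes, with Benjamini-Hochberg adjustment and a threshold of 0.05. The test was checked on simulated data. Levels are TMM-normalized CPM. Levels between genes are CPM per kb of GENCODE exons. Counts, log2 fold changes and adjusted p are given for genes at an unadjusted p under 0.05 and the most counted gene of each cluster, other genes by counts or range. Of other lists, called genes and the 2 of smallest p are named, and further genes were chosen after their values were seen. Alternatives were DESeq2 1.42.0 (its size factors, its Wald test), limma-voom (limma 3.58.1), library totals, other filters, no X and Y genes, and leaving out each library. Members, lists and tests were chosen with earlier results of these data known. Promoters are RefSeq windows (GRCm38.p6).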

Additional observations from a re-analysis of the deposited data

How the results depend on the processing

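The number of imprinted genes called was 2 of 36 in edgeR's quasi-likelihood test. It was 1 with DESeq2's size factors (Magel2), 3 with library totals or without genes on X and Y (Magel2, Peg10 and Dlk1), 6 with DESeq2's own test (Magel2, Peg10, Peg3, Calcr, Nap1l5 and Mest, 0.43% of all genes lower), 2 with limma-voom or a filter of 1 CPM in 2 libraries, and 0 with no filter, where 13 of 39 were lower at an unadjusted p under 0.05. Over all genes the number called was 32, against 81 with DESeq2 and 8 with no filter. Leaving out 1 library at a time gave 0 to 9 imprinted genes and 0 to 292 of all genes, and a median log2 fold change of the imprinted genes between -0.39 and -0.19. The count of 0 in both cases came without WT replicate 5, and the count was 9 without cKO replicate 2 or WT replicate 4 and 7 without cKO replicate 6. In these fits the lone library is assumed to vary like the other group. All calls among the 40 imprinted genes were lower in cKO. The direction of the 18 genes with full values held in all 11 alternatives except for Meg3, whose log2 fold change when 1 library was left out lay between -0.43 and 0.0154, the value above 0 coming without WT replicate 5 (edgeR adjusted p = 0.988). No paired analysis was possible because the replicate numbers 2 and 6 of cKO and 4 and 5 of WT are not shared. With 2 libraries per group, a p above the threshold does not show that a gene was unchanged.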
